A study of Mus musculus with 72 samples.

Results

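Nr1d1, Nr1d2 and Rora encode nuclear receptors of the circadian clock, and their transcripts are described here in every one of 72 RNA-seq libraries made from interfollicular epidermis of mice, the outer skin layer between hair follicles. The genes were chosen by name, with earlier results of these data known. This gives 3 genes of the 46078 in the count tables, and all 3 passed the filter on low counts. All mice were C57BL/6 females aged 8 weeks, kept in 12 h light and 12 h dark. WT mice carried K14-Cre alone, a Cre recombinase driven by the keratin 14 promoter. KO mice were Bmal1-stopFL without Cre, in which a stop cassette silences Bmal1, the clock activator encoded by Arntl. RE mice were Bmal1-stopFL with K14-Cre, so Bmal1 could return where keratin 14 is made, while cells outside such epithelia stayed as in KO. Each genotype was sampled at time points 1 to 6, which gives 18 groups of 4 libraries. The series asks which daily epidermal transcripts remain when clocks outside the epidermis are absent.

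The REV-ERB proteins, encoded by Nr1d1 and Nr1d2, are repressors that bind heme and recruit the corepressor NCOR1 with the deacetylase HDAC3. ROR proteins, such as those encoded by Rora and Rorb, activate transcription from the same DNA element, built around the core AGGTCA. BMAL1 with CLOCK or NPAS2 activates Nr1d1 and Nr1d2 through E-boxes, and REV-ERB in turn represses Arntl, Npas2, Cry1 and other genes with ROR elements. This loop stabilises the clock, and in mouse tissues Nr1d1 is among its genes of largest daily range.

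The promoter windows of both REV-ERB genes and of Arntl, their best known target, are printed because these genes belong to this loop. They come from RefSeq (GRCm38.p6), run from 250 bases before to 50 bases after the start of transcription, and are written 5′ to 3′ on the strand of the gene, with motif matches in capitals. All 3 members had a window. The motifs searched on both strands were the E-box CACGTG, the E-prime box CACGTT, the ROR core motif AGGTCA and the D-box TTANGTAA, and their matches did not overlap each other in these windows.
Nr1d1, chr11:98775328-98775627, minus strand: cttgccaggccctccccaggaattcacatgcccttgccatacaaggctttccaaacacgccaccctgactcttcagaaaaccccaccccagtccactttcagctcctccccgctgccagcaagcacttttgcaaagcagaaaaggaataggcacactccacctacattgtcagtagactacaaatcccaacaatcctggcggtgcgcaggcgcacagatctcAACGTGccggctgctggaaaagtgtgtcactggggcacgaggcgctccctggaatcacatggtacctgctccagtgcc
Nr1d2, chr14:18239057-18239356, minus strand: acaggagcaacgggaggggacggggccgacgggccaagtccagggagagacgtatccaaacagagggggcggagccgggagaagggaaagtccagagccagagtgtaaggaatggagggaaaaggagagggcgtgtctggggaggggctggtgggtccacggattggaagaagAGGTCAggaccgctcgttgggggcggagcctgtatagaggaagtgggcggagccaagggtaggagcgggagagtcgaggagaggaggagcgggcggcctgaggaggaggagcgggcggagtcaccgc
Arntl, chr7:113207261-113207560, plus strand: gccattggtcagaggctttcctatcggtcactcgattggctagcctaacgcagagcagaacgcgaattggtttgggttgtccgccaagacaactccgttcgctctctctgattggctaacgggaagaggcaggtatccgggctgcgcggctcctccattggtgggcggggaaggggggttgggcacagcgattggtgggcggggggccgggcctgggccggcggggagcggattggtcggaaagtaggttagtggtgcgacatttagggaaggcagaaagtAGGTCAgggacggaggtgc
The Nr1d1 window held 1 E-prime box, read as AACGTG on the strand of the gene, at base -28 from the start. The Nr1d2 window held 1 ROR core motif at -77, and the Arntl window held 1 at base 32 after the start. RefSeq lists 2 starts for Arntl, and the downstream one is shown because this motif lies beyond the window of the other. None of the 4 motifs occurred in the Rora window (chr9:68653536-68653835, plus strand), which is not printed. Of 32851 windows of this length, 7.15% held the E-box, 4.68% the E-prime box, 16.26% the ROR core motif and 2.32% the D-box, so such matches are common and are given as a description of the sequence.

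Nr1d1 (ENSMUSG00000020889) lies on chromosome 11 from 98767932 to 98775333 on the minus strand of GRCm38. Its merged exons span 3077 bases, of which 263 (8.5%) are shared with Thra, a thyroid hormone receptor gene on the opposite strand. Nr1d2 (ENSMUSG00000021775) lies on chromosome 14 from 18204054 to 18239127 on the minus strand and shares no exon bases with another gene. Rora (ENSMUSG00000032238) lies on chromosome 9 from 68653786 to 69388246 on the plus strand and shares 0.6% of its exon bases with Gm15511. The strand setting of the counting is not given in the sources used here, so reads of the shared stretches cannot be assigned to 1 gene with certainty.

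Libraries held between 2.96e+07 and 4.95e+07 reads in genes. Arntl, the silenced gene, was at 75.2 ± 37.7 CPM (read counts scaled for library size, SD, n = 24) in WT, 31.3 ± 2.98 in KO and 72.7 ± 21.6 in RE. Basal keratinocyte markers (Krt14, Krt5, Itga6 and Col17a1) summed to 2192 CPM in WT replicate 4 of time point 5 and to 1777 CPM in RE replicate 3 of time point 5, and these 2 libraries are counted as in doubt. In the libraries not in doubt they summed to between 1.31e+04 and 2.3e+04 CPM. Endothelial markers summed to at most 1.55 CPM and adipocyte markers to at most 1.26 CPM. Fibroblast markers reached 143 CPM, and 29.1 CPM in the libraries not in doubt, and melanocyte markers reached 113 CPM. Sebaceous gland markers summed to between 397 and 1154 CPM. T cell markers (7 genes) lay between 245 and 560 CPM and Langerhans cell markers between 140 and 793 CPM. The T cell sum had a median of 415 CPM in WT, of 444 CPM in KO and of 396 CPM in RE. Suprabasal keratinocyte markers (Krt1, Krt10, Lor and Flg2) had a higher median sum in KO, at 2.09e+04 CPM, against 1.56e+04 in WT and 1.74e+04 in RE, which was not tested, and hair follicle markers (Krt15, Cd34, Lhx2, Sox9 and Krt79) summed to a median of 5635 CPM in WT, 5471 in KO and 5760 in RE. The part of these cells in the results below was not tested. At time point 3, the expression of genes that separate the genotypes went against the label in 3 libraries, which brings those in doubt to 5. An index from 50 such genes was set to 0 for WT and 1 for KO, and it was 0.178 in KO replicate 1 of that time point, against 0.906 to 1.16 in the remaining 23 KO libraries. A like index with RE set to 1 was 0.97 in WT replicate 2 and -0.184 in RE replicate 2. WT libraries not in doubt ranged from -0.135 to 0.88 on it and those of RE from 0.385 to 1.41, so the case is less clear for the WT library. Labels were kept as given, and results that rest on these 5 libraries are given with and without them. The 3 libraries of time point 3 were picked by their distance from their label, so leaving them out favours differences between genotypes. The log2 ratio of 2 mitochondrial transcripts, mt-Co1 over mt-Nd1, also split the libraries into a set of 40, at -3.75 to -3.02, and one of 32, at -6.02 to -5.09. The first holds time points 1 to 3 of every genotype and time point 4 of WT. The labels name no batch, so what the sets stand for is not known, and they run along time. For the members a fit that includes the set is given where it changes a call, and for the gene lists the calls it changes are named.

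Nr1d1, which encodes REV-ERBα, had the largest daily range of the members in WT. In WT it was at 150, 129, 125 and 113 CPM at time point 1, at 191, 242, 391.7 and 222 at time point 2, and at 310, 84.8, 345 and 286 at time point 3. It was at 119, 161, 117 and 167 CPM at time point 4, 38.5, 28.8, 37.1 and 32.7 at time point 5, and 38.0, 12.3, 12.6 and 11.3 at time point 6. The low value at time point 3 belongs to replicate 2, a library in doubt, and it also lay below the RE libraries of that time point (126 to 266 CPM). No library of time points 5 and 6 reached the lowest of the other 4 time points.

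In KO, 23 of the 24 libraries held between 2.70 and 14.4 CPM of Nr1d1. The 4 values were 13.9, 8.31, 14.4 and 3.91 CPM at time point 1, 4.50, 4.23, 7.003 and 3.05 at time point 2, and 253, 2.70, 2.93 and 3.82 at time point 3. At time points 4 to 6 they lay between 2.77 and 6.34 CPM. The library at 253 CPM is the one labelled KO time point 3 replicate 1, and without it no KO library reached the lowest WT library at the same time point.

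In RE, Nr1d1 was at 165, 99.4, 114 and 90.6 CPM at time point 1, 92.6, 169, 104 and 145 at time point 2, and 126, 266, 147 and 173 at time point 3. It was at 118, 81.2, 69.3 and 157 CPM at time point 4, 56.2, 103, 76.9 and 30.5 at time point 5, and 31.6, 43.8, 61.1 and 57.5 at time point 6. Each RE library thus held more Nr1d1 than the 23 KO libraries, and the RE profile lay below WT at time point 2 and mostly above it at time point 6.

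**Figure D1:**
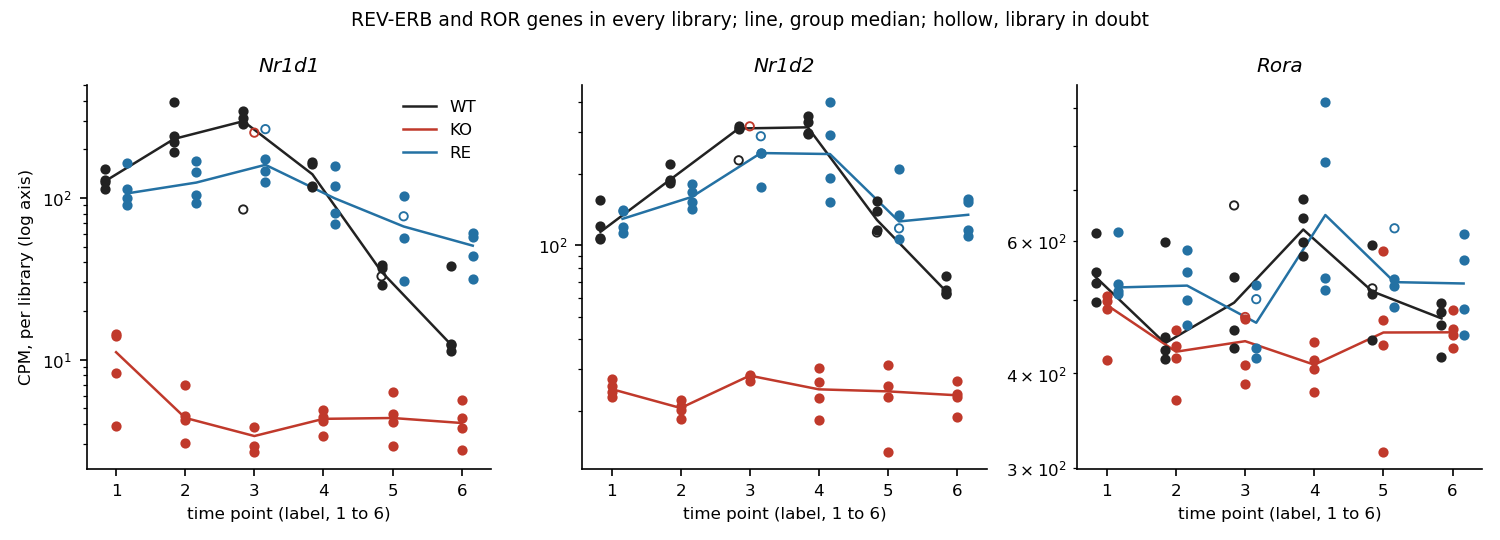
CPM of Nr1d1, Nr1d2 and Rora on log axes against time point in WT (black), KO (red) and RE (blue), with 1 point per library, lines through the group medians and hollow points for the 5 libraries in doubt. Nr1d1 and Nr1d2 lie far lower in KO than in WT and RE except in the hollow KO library at time point 3, and Rora covers a narrow range from 315 to 916 CPM in all genotypes.

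A cosine with a period of 6 time points was fitted to all 72 libraries with edgeR, and a rhythm was called at an adjusted p under 0.05. Of the 3 members, 2 were called rhythmic in WT (34.2% of 18515 genes tested), 2 in KO (7.7%) and none in RE (13.5%). In RE the unadjusted p of 2 members was under 0.05, limma-voom called 2, and DESeq2 called none and gave Nr1d1 no adjusted p. The WT rhythm of Nr1d1 had a log2 range from trough to peak of 3.82 ± 0.61 (SE), or 14.1-fold, with an edgeR adjusted p of 7.12e-05 and a peak at time point 2.57 ± 0.15. The median range over all genes tested was 0.35 in WT, 0.22 in KO and 0.27 in RE on the same scale. In a fit that includes the set the range was 1.47 and was no longer called (adjusted p = 0.394), while in that fit without the 5 libraries it was 2.72 (adjusted p = 1.8e-05).

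The KO rhythm calls rested on a single library. With all libraries the log2 range of Nr1d1 in KO was 3.47 ± 0.67 (edgeR adjusted p = 6.76e-05). Without the library labelled KO time point 3 replicate 1 it was 1.11 ± 0.39 (adjusted p = 0.132, with 7.2% of genes called), and the rhythm difference between KO and WT was then called, with a range smaller by 2.71 on the log2 scale in KO (-2.71 ± 0.51, adjusted p = 1.77e-06, 1.97% of 18754 genes). With all libraries that difference was -0.35 ± 0.91 (adjusted p = 0.946, 1.34% of genes). A test of any difference among the 6 time points called Nr1d1 and Nr1d2 in WT (44.4% of genes) and KO (9.35%). It called Nr1d1 in KO also without the 5 libraries (log2 range of group means 1.70, adjusted p = 0.0122), with time point 1 as the highest group. The RE range was 1.63 ± 0.61 with all libraries (adjusted p = 0.158) and 1.64 ± 0.33 without that KO library (adjusted p = 0.00089).

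Nr1d2, which encodes REV-ERBβ, was highest at time points 3 and 4 in WT. It was at 155, 121, 106 and 107 CPM at time point 1, 189, 183, 220 and 187 at time point 2, and 319, 228, 312 and 309 at time point 3. It was at 298, 350, 295 and 330 CPM at time point 4, at 140, 116, 154 and 113 at time point 5, and at 74.4, 64.8, 62.9 and 62.3 at time point 6. All libraries of time points 2 to 4 lay above all of time points 1, 5 and 6.

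In KO, Nr1d2 lay between 13.5 and 31.3 CPM in 23 libraries and at 317 CPM in the library labelled time point 3 replicate 1. In RE it was at 141, 119, 139 and 112 CPM at time point 1, 142, 168, 152 and 182 at time point 2, 176, 288, 244 and 245 at time point 3, and 402, 193, 152 and 292 at time point 4. At time point 5 it was at 106, 210, 118 and 134 CPM, and at time point 6 at 109, 116, 156 and 153. The lowest RE library, at 106 CPM, stood above the highest of the 23 KO libraries, at 31.3 CPM, and at time point 6 all 4 RE libraries lay above all 4 WT libraries.

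The WT rhythm of Nr1d2 had a log2 range of 2.12 ± 0.36, or 4.35-fold (edgeR adjusted p = 4.61e-05), with a peak at time point 3.21 ± 0.16, and its distance from the peak of Nr1d1 was not tested. In a fit that includes the set the range was 1.56 and stayed called (adjusted p = 0.0052). In KO the range was 1.68 ± 0.37 (adjusted p = 0.000538) with all libraries and 0.12 ± 0.18 (adjusted p = 0.945) without the library labelled KO time point 3 replicate 1. Without that library the rhythm difference between KO and WT was -2.001 ± 0.25 (adjusted p = 9.03e-07), against -0.44 ± 0.52 (adjusted p = 0.815) with it. In RE the range was 1.08 ± 0.36 (adjusted p = 0.0755) with all libraries and 1.08 ± 0.17 (adjusted p = 7.4e-06) without that KO library, with a peak at 3.46 in both fits.

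Whether the REV-ERB rhythms of RE were smaller than those of WT depended on the libraries in doubt. With all libraries, the range in RE minus that in WT was -2.19 ± 0.86 for Nr1d1 (edgeR adjusted p = 0.842) and -1.04 ± 0.51 for Nr1d2 (adjusted p = 0.953), and 0.027% of genes were called. Without the 5 libraries the differences were -2.50 ± 0.45 (adjusted p = 0.0102) and -1.17 ± 0.25 (adjusted p = 0.0131), where 0.529% of 18703 genes were called. In a fit that includes the set, with all libraries, the differences were 0.38 for Nr1d1 (adjusted p = 0.411) and 0.0013 for Nr1d2 (adjusted p = 0.733). The rhythm difference between RE and KO was not called for any member with all libraries (0% of genes, none of 18515) or without the 5. With all libraries, the range in RE minus that in KO was -1.84 ± 0.91 for Nr1d1 and -0.60 ± 0.51 for Nr1d2. Without the 5 the sign changed, to 0.40 ± 0.50 for Nr1d1 (edgeR unadjusted p = 0.000994, adjusted p = 0.563). For Nr1d2 it was then 0.90 ± 0.25 (unadjusted p = 0.00228, adjusted p = 0.705). Over all alternatives at most 2 genes were called in this comparison.

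Rora, which encodes the activator RORα, had no cosine rhythm called in any genotype. It lay between 417 and 681 CPM in WT with a median of 514, between 315 and 581 in KO with a median of 438, and between 419 and 916 in RE with a median of 523. The log2 range of its fitted cosine was 0.22 ± 0.12 in WT (edgeR adjusted p = 0.289), 0.16 ± 0.12 in KO (adjusted p = 0.742) and 0.23 ± 0.12 in RE (adjusted p = 0.35), each below the median of all genes in that genotype. In WT a test of any difference among time points gave a range of group means of 0.42, not called with all libraries (edgeR adjusted p = 0.0723) and called without the 5 in doubt (adjusted p = 0.0408). That test called Rora in RE (range of group means 0.54, adjusted p = 0.0445, 18.6% of genes), where the group of time point 4 was the highest at 916, 762, 535 and 516 CPM. At that time point WT held 681, 643, 598 and 572 CPM and KO 417, 440, 405 and 378, so that KO overlapped neither.

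**Figure D2:**
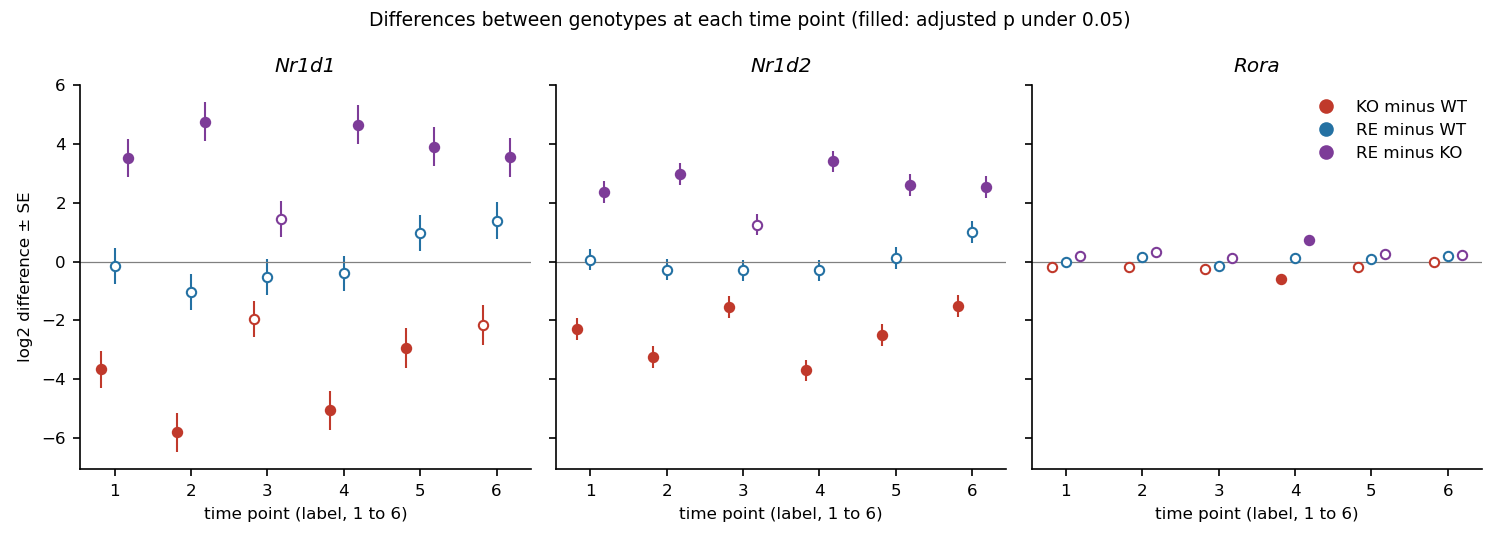
Log2 differences of Nr1d1, Nr1d2 and Rora between genotypes at each time point from the edgeR fit of 18 group means, as KO minus WT (red), RE minus WT (blue) and RE minus KO (purple), with SE bars and filled points where the adjusted p was under 0.05. REV-ERB genes lie below 0 in KO against WT at every time point and between -1.04 and 1.38 in RE against WT. Rora lies below 0 in KO against WT and above 0 in RE against KO at every time point. It is called in these comparisons at time point 4 only.

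Averaged over the day, all 3 members were lower in KO than in WT, where 11.3% of genes were called lower. The mean log2 difference was -3.26 ± 0.32 for Nr1d1 (9.60-fold, edgeR adjusted p = 1.43e-11), -2.35 ± 0.18 for Nr1d2 (5.09-fold, adjusted p = 1.42e-15) and -0.25 ± 0.06 for Rora (1.19-fold, adjusted p = 0.00212). Without the library labelled KO time point 3 replicate 1 the first 2 were -4.33 ± 0.18 (20.1-fold) and -2.79 ± 0.09 (6.93-fold), and Rora was again at -0.25 ± 0.06. The median over all genes was -0.01. In bulk RNA fewer cells of a type and less RNA per cell cannot be told apart.

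All 3 members were higher in RE than in KO, where 7.08% of genes were called higher. The differences were 3.26 ± 0.32 for Nr1d1 (edgeR adjusted p = 1.66e-11), 2.39 ± 0.18 for Nr1d2 (adjusted p = 6.72e-16) and 0.31 ± 0.06 for Rora (adjusted p = 0.000157). Between RE and WT no member was called, against 0.691% of genes. Those differences were -0.0041 ± 0.30 for Nr1d1 (adjusted p = 0.997), 0.05 ± 0.18 for Nr1d2 (adjusted p = 0.95) and 0.06 ± 0.06 for Rora (adjusted p = 0.746). Comparisons with KO share its libraries, so the falls and rises above are not separate evidence.

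At single time points, Nr1d1 was called lower in KO than WT at time points 1, 2, 4 and 5, at which 3.19%, 0.708%, 5.67% and 1.41% of genes were called lower. At time point 4 WT lies in another set by the mitochondrial ratio than KO and RE. Set and genotype thus cannot be told apart in any comparison with WT there. The log2 difference went from -2.94 ± 0.67 at time point 5 (edgeR adjusted p = 0.00963) to -5.80 ± 0.66 at time point 2 (adjusted p = 1.66e-06). At time point 3, with 0.162% of genes called lower, it was -1.96 ± 0.61 (adjusted p = 0.201), and -6.35 ± 0.42 (adjusted p = 3.76e-14) without the KO library in doubt. At time point 6, with 0.383% of genes called lower, it was -2.16 ± 0.68 (adjusted p = 0.125), and the same -2.16 ± 0.38 (adjusted p = 0.000725) without it. The calls at time points 1 and 5 were lost when replicate 2 of every group was left out (adjusted p = 0.0527 and 0.0574), and that at time point 5 also without replicate 4 (adjusted p = 0.0686).

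Nr1d2 was called lower in KO at all 6 time points, from -1.52 ± 0.37 at time point 6 (edgeR adjusted p = 0.0313) to -3.70 ± 0.37 at time point 4 (adjusted p = 2.7e-10). The calls at time points 3 and 6 were lost when replicate 2, 3 or 4 of every group was left out (adjusted p between 0.105 and 0.659). Rora was called lower in KO only at time point 4 of the 6 (-0.60 ± 0.14, adjusted p = 0.00126), where KO lies in another set by the mitochondrial ratio than WT, so that set and genotype cannot be told apart there. RE lies in the same set as KO at that time point, and Rora was 0.73 ± 0.14 higher in RE than KO (adjusted p = 0.000744, where 1.13% of genes were called higher), and 0.57 higher (adjusted p = 0.0715) without replicate 1 of every group. In RE against KO, Nr1d1 and Nr1d2 were called higher at time points 1, 2, 4, 5 and 6, at which 0.054%, 0.383%, 1.13%, 1.12% and 0.275% of genes were called higher. For Nr1d1 the calls at time points 1 and 6 were lost when replicate 2, 3 or 4 of every group was left out (adjusted p between 0.0571 and 0.186). At time point 3, with 0% of genes called higher, Nr1d1 was 1.44 ± 0.61 higher (adjusted p = 0.758) and Nr1d2 1.25 ± 0.36 higher (adjusted p = 0.283), and both were called without the KO library in doubt (5.83 and 3.11).

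No member was called between RE and WT at any of the 6 time points, at which 0.0054%, 0.124%, 0%, 3.88%, 0.0054% and 0.0054% of genes were called. At time point 6, Nr1d1 was 1.38 ± 0.62 higher in RE (edgeR adjusted p = 0.99) and Nr1d2 1.01 ± 0.36 higher (adjusted p = 0.748) with all libraries, and only these 2 of the 18 values had an unadjusted p under 0.05. Without the 5 libraries both passed at that time point, at 1.39 ± 0.31 (adjusted p = 0.0488) and 1.02 ± 0.19 (adjusted p = 0.012), where 0.128% of genes were called. Without replicate 1 of every group Nr1d2 also passed at time point 4 (-0.61, adjusted p = 0.0455). RE lies there in another set by the mitochondrial ratio than WT, so set and genotype cannot be told apart, also in the share of genes called.

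The libraries of KO and WT did not overlap in Nr1d1 at 5 of 6 time points, nor in Nr1d2 at 5 of 6, and without the libraries in doubt at 6 of 6 for both. Of all genes tested, 12.1%, 7.13%, 6.43%, 23%, 6.45% and 13.9% did not overlap between KO and WT at time points 1 to 6. Rora did not overlap at 1 time point, which is near that background. Between RE and KO, Nr1d1 and Nr1d2 did not overlap at 5 of 6 time points and Rora at 3, against 3.71%, 4.42%, 4.2%, 9.6%, 5.39% and 9.11% of genes. Between RE and WT, Nr1d1 did not overlap at 1 time point, Nr1d2 at 2 and Rora at none, against 3.06%, 2.15%, 1.92%, 8.13%, 0.951% and 6.84% of genes. Without the libraries in doubt it was 2, 3 and none, with RE lower at time point 3 for both REV-ERB genes. Replicate 2 of WT and of RE there were put in doubt by an index that separates WT from RE. Leaving them out thus favours groups that do not overlap, and the shares given are of all libraries. At time point 4 WT lies in another set by the mitochondrial ratio than KO and RE, so its shares there may reflect set or genotype.

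Rorb, which encodes the activator RORβ, was nearly absent, with at most 3 reads in any library, and did not pass the filter.

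**Figure D3:**
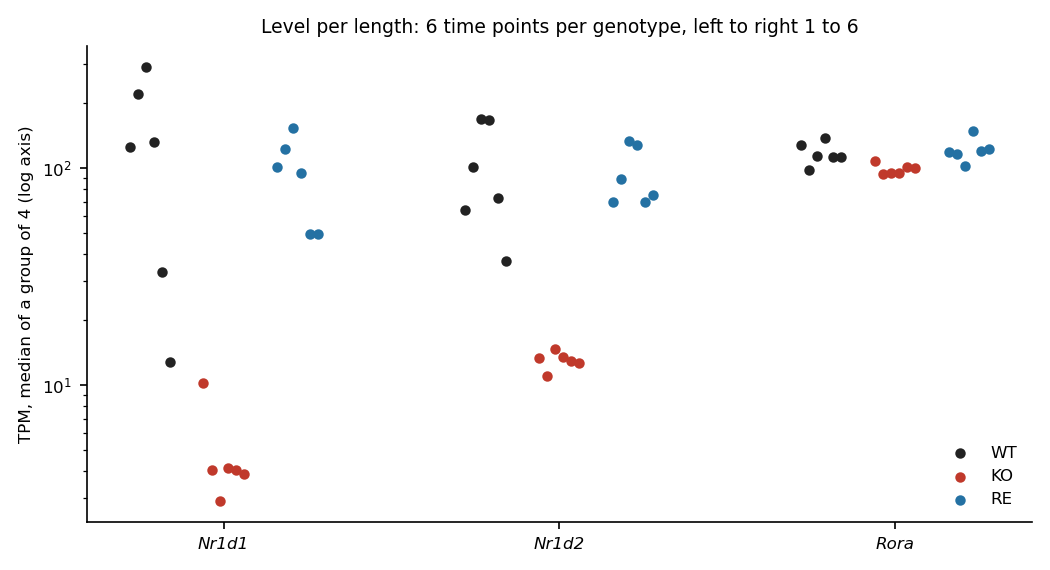
TPM (reads per kilobase of merged exon, scaled to the same total in every library) on a log axis for Nr1d1, Nr1d2 and Rora, with the group medians of time points 1 to 6 from left to right for WT (black), KO (red) and RE (blue). In KO the REV-ERB genes lie between 2.93 and 14.6 TPM while Rora lies between 94.2 and 108.

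Per length, the day means of the 3 members were closer in WT than in KO, while at single time points the WT levels lay apart. At time point 2 in WT the mean was 251 ± 92.8 TPM for Nr1d1 and 106 ± 21.6 for Rora, and at time point 6 it was 18.7 ± 13.1 and 110 ± 5.97 (SD, n = 4). Mean TPM over the day in WT was 134 ± 108 for Nr1d1, 101 ± 52.3 for Nr1d2 and 117 ± 20.7 for Rora (SD, n = 24). In the order Nr1d1, Rora and Nr1d2, neighbours in WT differed by less than the larger of their SDs over the day, which hold the daily range. In KO the means without the library in doubt were 4.88 ± 2.89 TPM for Nr1d1 and 12.6 ± 2.18 for Nr1d2, against 96.8 ± 11.4 for Rora (n = 23). In KO the order was thus Rora, Nr1d2 and Nr1d1, and each differed from the next by more than their SDs. In RE the means were 101 ± 51.9 for Nr1d1, 95.3 ± 39.4 for Nr1d2 and 122 ± 25.8 for Rora, and neighbours in the order Rora, Nr1d1 and Nr1d2 again differed by less than the larger SD.

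Thra, whose gene end overlaps that of Nr1d1, had a smaller fitted range in WT than Nr1d1. Its log2 range in WT was 0.53 ± 0.10 (edgeR adjusted p = 0.000108) with a peak at time point 2.74 ± 0.18, against 2.57 ± 0.15 for Nr1d1, and the difference was not tested. It was at 111 ± 20.3 CPM in WT, 102 ± 14.0 in KO and 103 ± 14.4 in RE. Its mean in KO minus WT was -0.11 ± 0.05 (adjusted p = 0.119), and -0.16 ± 0.04 (adjusted p = 0.00421) without the 5 libraries. The share of Thra reads that lie in the stretch shared with Nr1d1 was not tested.

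Clock genes with ROR elements, on which REV-ERB and ROR compete, were rhythmic in WT, and 3 of 5 were higher in KO. A list of 5 (Arntl, Clock, Npas2, Cry1 and Nfil3) had 5 of 5 called rhythmic in WT (34.2% of all genes) and 3 of 5 in RE (Arntl, Npas2 and Cry1, against 13.5%). In KO edgeR called 0 of 5 (1, Nfil3, at an unadjusted p under 0.05), against 7.7% of all genes, so this count lies near that share. The median log2 range of the list was 2.06 in WT, 0.37 in KO and 1.03 in RE. In KO against WT, 3 were called higher (9% of genes) and 1 lower (11.3%). The risers were Npas2 (1.76 ± 0.16, edgeR adjusted p = 1.26e-13), a partner of BMAL1, Cry1 (1.46 ± 0.12, adjusted p = 3.45e-15), a repressor of BMAL1, and Clock (0.24 ± 0.04, adjusted p = 1.81e-05), and Arntl itself was lower (-1.09 ± 0.08, adjusted p = 6.37e-16). Nfil3, a repressor that binds D-boxes, was at 0.41 ± 0.18 (adjusted p = 0.102). It was called higher both without the 5 libraries and in the fit that includes the set, which makes 4 of 5. The shares of all genes called higher in those fits are not given here. The RE rhythm of Cry1 was not called in the fit that includes the set. Arntl is the gene silenced in KO and allowed to return in RE, so its place in these counts follows from the design. In RE against KO, 1 of the 5 was called higher (Arntl, 1.18 ± 0.08) and 3 lower (5.13% of genes), with Npas2 at -1.86 ± 0.16 and Cry1 at -1.52 ± 0.12, and in RE against WT none of the 5 was called by edgeR (adjusted p between 0.644 and 0.977, and none at an unadjusted p under 0.05).

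The fitted peaks of these genes in WT lay away from that of Nr1d1, and the differences in timing were not tested. Nr1d1 peaked at time point 2.57, and Arntl at 6.61, Npas2 at 6.74, Clock and Nfil3 at 6.79, and Cry1 at 5.46, on a scale on which 7 is again time point 1. Whether a peak on such a circle is earlier or later depends on where the cycle is started. The WT ranges were 2.13 ± 0.17 for Arntl, 2.99 ± 0.32 for Npas2 and 2.06 ± 0.24 for Cry1, and only 0.39 ± 0.09 for Clock. In RE they were 0.89 ± 0.17, 1.37 ± 0.32 and 1.03 ± 0.24 for the first 3. The difference between RE and WT was called by edgeR for none of the 5 genes with all libraries (3 at an unadjusted p under 0.05), and for Arntl, Npas2 and Cry1 without the 5 libraries in doubt.

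Of genes that, like Nr1d1, are activated through E-boxes, 9 of 11 were rhythmic in WT (34.2% of all genes) and 6 of 11 were lower in KO (11.3%). Of the 11 (Dbp, Tef, Hlf, Per1, Per2, Per3, Cry2, Ciart, Bhlhe40, Bhlhe41 and Wee1), 9 were called rhythmic in WT and 6 in RE (13.5% of all genes). In KO 2 were called (Dbp and Per3, against 7.7%), and none without the 5 libraries, where the median range in KO was 0.30. In KO against WT 6 were called lower and 0 higher, and 8 lower without the 5 libraries. The shares of all genes called without the 5 libraries are not given here, so these counts without them lack a background. Dbp, an activator at D-boxes, had a WT range of 5.24 ± 0.55 with a peak at 3.48 and a mean difference in KO of -1.09 ± 0.27 (edgeR adjusted p = 0.0026). Per3, a period protein gene, was lower in KO (-1.59 ± 0.18, adjusted p = 6.49e-10), a smaller log2 difference than that of either REV-ERB gene. Per2 (0.34 ± 0.20, adjusted p = 0.234) and Cry2 (0.14 ± 0.05, adjusted p = 0.0514) lay on the other side of 0, and Bhlhe40, Hlf and Wee1 were not called with all libraries. In the fit that includes the set, Per1 was no longer called lower in KO, Hlf was, and Ciart was called rhythmic in RE. The median over the list was -0.48, against -2.35 for the 3 members and -0.01 over all genes.

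**Figure D4:**
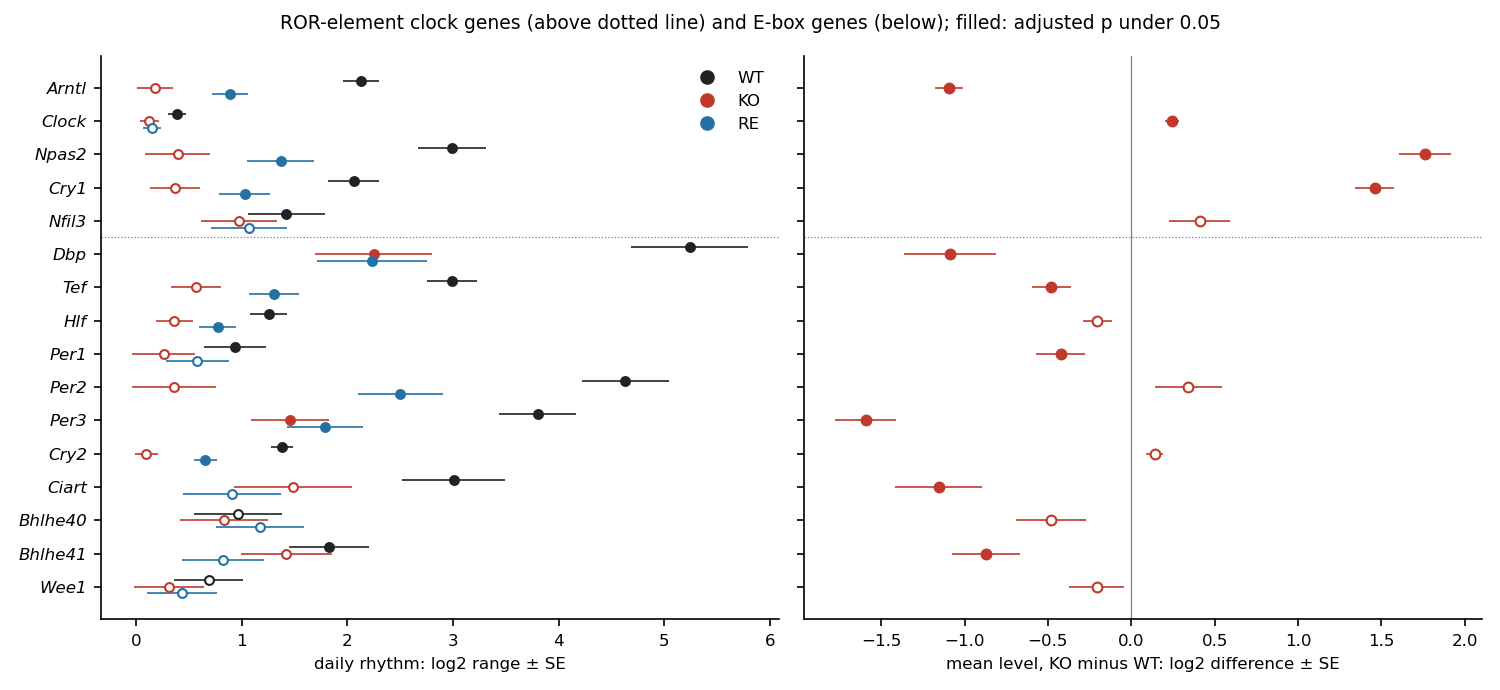
Log2 range of the daily rhythm in WT, KO and RE (left) and mean log2 difference of KO minus WT (right) for 5 clock genes with ROR elements above the dotted line and 11 E-box genes below it, with SE bars and filled points where the adjusted p was under 0.05. WT ranges exceed those of KO for every gene shown, and in the right panel 4 ROR-element genes, 3 of them called, lie above 0 while Arntl and the called E-box genes lie below it.

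A further 31 genes were those of REV-ERB and ROR cofactors, of REV-ERB turnover and of heme synthesis or breakdown. Of these, 5 were called lower in KO than WT and none higher, against 11.3% and 9% of all genes. Rhythmic in WT were 10 of the 31, against 34.2%. The lower and the rhythmic counts lie near those shares and are no result about these lists. Of 5 genes of the corepressor complex (Ncor1, Hdac3, Tbl1x, Tbl1xr1 and Gps2), 1 was called lower in KO (Ncor1, -0.09 ± 0.02, edgeR adjusted p = 0.00121), and Hdac3 (log2 range 0.15 ± 0.05) and Gps2 (0.19 ± 0.05) were called rhythmic in WT. Of 7 ROR coactivators, Ncoa3 (-0.11 ± 0.03) and Ep300 (-0.11 ± 0.04) were called lower in KO, and Ncoa3 and Ppargc1a (0.71 ± 0.20) were rhythmic in WT. Of 7 genes for REV-ERB turnover, Mycbp2 was called lower in KO (-0.10 ± 0.03), and Cdk1 (1.21 ± 0.38), Siah2 (0.73 ± 0.25) and Huwe1 (0.18 ± 0.06) were rhythmic in WT. Of 12 genes of heme synthesis or breakdown, Ppox was called lower in KO (-0.13 ± 0.04). Alas1 (0.36 ± 0.11), the first enzyme of heme synthesis, Uros (0.32 ± 0.09) and Fech (0.25 ± 0.07) were rhythmic in WT. None of these 31 genes was called rhythmic in KO or RE by edgeR with all libraries and no term for the set, against 7.7% and 13.5% of all genes. At an unadjusted p under 0.05 there were Siah2 and Hmox1 in KO and 6 genes in RE. Without the 5 libraries Hmox1 was called in KO, and Urod and Hmox1 in RE. In the fit that includes the set, Siah2 was called rhythmic in KO, and Cdk1 and Uros were no longer called in WT. The median mean difference of KO against WT lay between -0.03 and 0.01 in each of these 4 lists.

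Other genes reported as REV-ERB or ROR targets in mouse or human cells had no common direction. Of 12, 10 were tested, and 2 were called higher (9% of all genes) and 3 lower (11.3%) in KO against WT. Called rhythmic were 6 in WT (34.2% of all genes), 1 in KO (7.7%) and 2 in RE (Il6 and Plin2, against 13.5%). The higher ones were Insig2 (0.19 ± 0.05, edgeR adjusted p = 0.00196), which restrains sterol synthesis, and Ccl2 (0.62 ± 0.16, adjusted p = 0.00263), a chemokine. The lower ones were Lpl (-0.71 ± 0.16, adjusted p = 0.00061), a lipase of lipoproteins, Plin2 (-0.40 ± 0.09) and Ulk1 (-0.14 ± 0.05). E2f1 was rhythmic in WT with a range of 1.71 ± 0.35 and a peak at 4.02, and Il6 was rhythmic in all 3 genotypes with log2 ranges of 1.89 (WT), 2.26 (KO) and 2.33 (RE). In the fit that includes the set, the RE rhythms of Il6 and Plin2 and the lower level of Ulk1 in KO were no longer called.

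Likeness of pattern was described by Pearson's r of the 18 group medians of log2 CPM among 10141 protein-coding genes with a mean of at least 5 CPM, with no test, since the groups share genotypes and scaling. For Nr1d1 the most alike were Nr1d2 (0.95), Nrg4 (0.93), Chmp4c (0.91), Aldh1a7 (0.91) and Arsi (0.91). The most opposed were E2f2 (-0.96), Selenoi (-0.93), Cry1 (-0.93), Dolpp1 (-0.91) and Wdr47 (-0.91). For Nr1d2 the most alike were Arsi (0.96), Nr1d1, Rsad1 (0.94), Aldh1a7 (0.94) and Gadl1 (0.93), and the most opposed were Otulin (-0.98), Ttc9 (-0.96), Selenoi (-0.96), Xkrx (-0.95) and Il18r1 (-0.95). The 2 REV-ERB genes thus lay among each other's 5 most alike genes. For Rora the most alike were Gm49342 (0.93), Ahctf1 (0.90), Tgm3 (0.89), Llph (0.87) and Fkbp5 (0.85), and the most opposed were Tlr5 (-0.88), Tspan17 (-0.87), Zbtb17 (-0.86), Dcaf4 (-0.85) and Tdrd7 (-0.84). Rora stood at 0.59 with Nr1d1 and 0.67 with Nr1d2.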

How the data were processed

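RNA was sequenced from 72 epidermal libraries. The authors deposited raw read counts per gene for each library, made with Trimmomatic, TopHat2 2.1.1 and HTSeq on mm10 (GRCm38), per the submitters' processing notes. The counting's strand setting is not given in the sources used here. Of 46078 genes, 45229 matched GENCODE M21 by identifier. HTSeq's summary lines were left out of library sizes; reads in no gene made up 12.8% to 20.0% and ambiguous reads 1.16% to 2.60% of a table's total. Libraries held 2.96e+07 to 4.95e+07 reads in genes, and Nr1d1 by 401 to 14428 reads in WT, while Rorb held at most 3 reads.

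Counts were scaled by TMM and tested with edgeR 4.0.16 (R 4.3.3) by quasi-likelihood, after filterByExpr over 18 groups, which kept 18515 genes. All 72 libraries entered 1 cosine model with a period of 6 time points (9 coefficients) and 1 model of 18 group means. P-values were adjusted by Benjamini-Hochberg over all genes tested and called under 0.05. A range is the fitted peak minus trough in log2 units, and peaks lie on a scale on which 7 is again time point 1. The p of a rhythm difference tests cosine and sine terms jointly, so it also responds to timing. Alternatives were DESeq2 1.42.0, limma-voom (limma 3.58.1), other scaling and filters, the replicate number as a block, the set (by the mt-Co1 to mt-Nd1 ratio) as a term, and leaving out libraries. Named genes were the members, their fixed lists and the 5 most and least alike genes. A few genes of these lists are not reported here. Members and lists were chosen with earlier results of these data known. The leave-outs of 67 single libraries were added after seeing the data. Per the labels, 4 females were used per genotype and time point, so each library was taken as 1 mouse. Replicates of 1 group differed by far more than sampling noise in all 108 pairs compared. The scripts were tested on simulated data.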

Additional observations from a re-analysis of the deposited data

Results flagged for a closer look

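Of 54 groups of 4 libraries checked over the 3 members, 7 held a library far from the other 3 by Dixon's criterion (0.829), and chance gives about 1 in 20. For Nr1d1 these were 38 CPM in WT time point 6 replicate 1 and 253 CPM in KO time point 3 replicate 1. For Nr1d2 they were 220 CPM in WT time point 2 replicate 3, 228 CPM in WT time point 3 replicate 2 (the lowest of its group) and 317 CPM in KO time point 3 replicate 1. For Rora they were 598 CPM in WT time point 2 replicate 3 and 615 CPM in RE time point 1 replicate 2.

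The rhythm in KO differed from that in WT by edgeR's joint test, as log2 range in KO minus WT, for Arntl (-1.95), Npas2 (-2.59), Cry1 (-1.69), Dbp (-2.99), Tef (-2.42), Per2 (-4.27), Per3 (-2.34), Cry2 (-1.28) and Ciart (-1.52). In the fit that includes the mitochondrial-ratio set, Dbp and Ciart were no longer called.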

How the results depend on the processing

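The KO rhythm was not called by limma-voom (Nr1d1 0.79, Nr1d2 0.78), without the 5 libraries (1.12 and 0.12) or with the set included and the 5 left out (1.45 and 0.59), nor for Nr1d1 with the set included (2.18) or for Nr1d2 with only the genotypes compared (1.69). The RE rhythm was called by limma-voom (1.68 and 1.02), without the 5 libraries (1.52 and 1.02), with only the genotypes compared (1.64 and 1.08) and, for Nr1d2, with the set included and the 5 left out (1.21). The WT rhythm of Nr1d1 was not called with the set included (1.47), and Rora in RE passed for any difference among time points (0.54). Rhythm differences passed without the 5 libraries in KO minus WT (-2.90 and -2.07) and RE minus WT (-2.50 and -1.17), and also with the set included too (-1.27 and -1.29, then -1.77 and -0.67). The mean of Nr1d1 in RE minus WT, near 0, turned positive with limma-voom (0.024), the set included (0.38) and the set without the 5 (0.15). The cause was not tested.

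Replicate numbers do not pair the libraries (mean correlation 0.0153 for the same number and -0.00451 for different numbers). With the replicate number as a block the mean of Nr1d1 in RE minus WT was 0.031, and no other call of a member in the cosine model changed.

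Leaving out 1 library, or 1 replicate number in every group, gave log2 ranges in KO from 0.83 to 3.97 for Nr1d1 and from 0.12 to 2.09 for Nr1d2, and in RE from 1.48 to 1.86 and from 0.92 to 1.26. Rhythm differences in KO minus WT went from -3.33 to 0.44 and from -2.001 to 0.062, and that of Nr1d2 in RE minus WT from -1.26 to -0.82. Means in RE minus WT went from -0.14 to 0.089 for Nr1d1 and from -0.0056 to 0.091 for Nr1d2. Of single libraries, KO time point 3 replicate 1 alone changed a rhythm or rhythm difference call of a member.
At single time points, differences near 0 changed sign within these ranges. In KO minus WT, Rora went from -0.34 to 0.018 at time point 5 and from -0.048 to 0.0026 at time point 6. In RE minus WT, Nr1d2 went from -0.044 to 0.15 at time point 1 and from -0.19 to 0.29 at time point 5, and Rora from -0.13 to 0.071 and from -0.0050 to 0.15. In RE minus KO, Rora went from -0.0031 to 0.20 at time point 3.

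Over all alternatives the genes called ranged from 3519 to 7069 for the WT rhythm (6332 as reported), 540 to 1990 in KO (1425) and 569 to 3093 in RE (2494). For rhythm differences they ranged from 30 to 981 in KO minus WT (249), 0 to 99 in RE minus WT (5) and 0 to 2 in RE minus KO (0). For means they ranged from 1849 to 5381 (3759), 17 to 706 (128) and 1064 to 3609 (2261). DESeq2 gave Nr1d1 no adjusted p in the cosine model. No level per length moved by more than its SD with the longest transcript.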
